A study of Danio rerio with 4 samples.

Results

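The genes described are the translation initiation and elongation factors of zebrafish embryos, taken as every probe set of an Affymetrix zebrafish array whose single gene symbol in the platform annotation starts with eif1 to eif6, eef1 or eef2. The rule found 80 probe sets for 64 genes, of 8793 genes named on the array. Each gene is represented by its brightest probe set, the one with the highest mean log2 intensity over all arrays. The names also took in 8 regulators that are not factors themselves, such as the kinase eef2k, and counts over all factor genes include them.

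Whole embryos were compared at 36 hours post fertilisation (hpf). The treated embryos had been kept from 12 to 36 hpf in E3, the usual medium for embryos, with 1% glucose, and the controls had not. All were incubated at 28C, and the labels name no strain, genotype or further agent. Each group had 2 biological replicates with 1 array each, and the sources used here do not say whether these were separate clutches. The p-values thus concern these samples only. In the test used for calls, most of each variance came from other probe sets of similar intensity, not from a gene's own arrays. The study concerns how glucose metabolism bears on the induction of blood stem cells, and the arrays compare the transcripts of embryos with and without added glucose.

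Translation starts when eIF2 brings the initiator tRNA to the small ribosomal subunit, where eIF3 forms a scaffold and the eIF4 factors bind the capped mRNA and unwind it. eIF2B then recharges eIF2 with GTP, and stress kinases that phosphorylate eIF2 block this recycling. In elongation, eEF1 delivers each aminoacyl-tRNA and eEF2 moves the ribosome along. Signalling through mTORC1, which responds to nutrients, acts on the same machinery through the eIF4E-binding proteins and through the kinase of eEF2. Much of this control acts on proteins by phosphorylation, which an array of transcripts does not measure.

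Of the 64 factor genes, 63 passed the filter on low values, a log2 intensity of at least 5 on at least 2 of the 4 arrays, and the mean of 59 lay above the tag level of 117.7, the maximum over 17 control probe sets for tag sequences that fish lack. Array medians were between 171 and 175. Genes rose or fell, in the sense used here, at a Benjamini-Hochberg adjusted p under 0.10 in limma with an intensity trend, fitted over all 13628 probe sets. That test called 273 probe sets, 2.0% of those tested. By brightest probe set it called 178 of 8164 genes, or 2.18%, with 125 higher (1.53%) and 53 lower (0.649%) in glucose. Limma without the trend called 0 probe sets (0.0%), with 613 higher and 539 lower at an unadjusted p under 0.05.

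Of the 63 factor genes tested, 0 rose in glucose and 1 fell, the tRNA synthetase complex gene eef1e1, and the other 62 missed the threshold. That share is close to the share called among all genes. At an unadjusted p under 0.05 lay 3 higher and 1 lower factor genes, 4 of 63, where the same test had 982 of 8164 genes, or 12.0%. The 63 differences ran from -0.56 to 0.47 on the log2 scale, with a median of 0.063 (1.04-fold), beside a median of 0.006 over all 8164 genes. Of the 63, 44 were higher in glucose (69.8%), against 51.0% of all genes. By kind, 34 of 45 initiation factor genes, 6 of 10 elongation factor genes and 4 of 8 regulators were higher. Their median differences were 0.092, 0.027 and 0.016 in turn. The gene that fell, eef1e1, counts among the regulators, and 0 initiation or elongation factor genes passed.

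Both glucose arrays lay above both control arrays for 22 of the 63 factor genes (34.9%), and both lay below for 8 (12.7%). Over all genes these shares were 21.8% and 20.6%. Of the 8 regulators among the factor genes, 1 lay above and 3 below in this way. The factor genes were brighter than most, with a median mean log2 of 10.7 against 8.26 for all genes, and their standard errors were smaller, with a median of 0.13 against 0.19. For 49 of the 63 genes the 95% interval of the difference lay within 1.5-fold in either direction, as it did for 47.8% of all genes. At a mean log2 of at least 10, it did for 94.6% of 37 factor genes and 88.6% of all 1693 genes. At that level 81.1% of factor genes and 47.1% of all genes were higher in glucose. Both glucose arrays lay above both controls for 48.6% and 23.0%, and below for 10.8% and 26.2%. The median factor gene, measured from its own mean over the arrays, stood at 0.036 and 0.027 on the glucose arrays and at -0.029 and -0.027 on the control arrays.

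**Figure D1:**
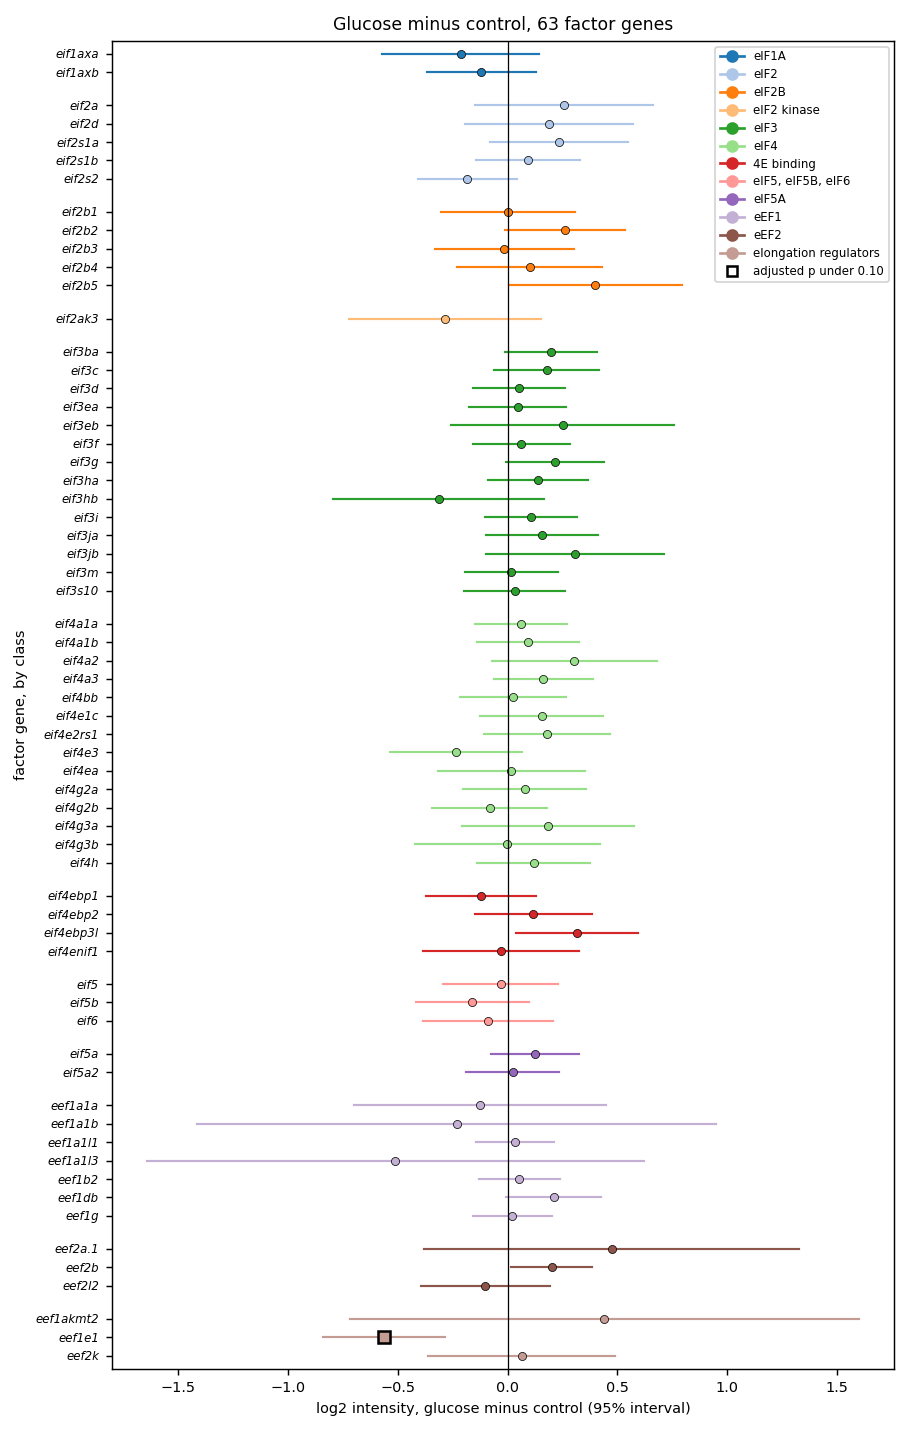
Log2 intensity difference, glucose minus control (x axis, point, with its 95% interval as a line), for the 63 factor genes tested, grouped and coloured by class down the y axis. Only eef1e1, at -0.56 (square), passed an adjusted p of 0.10, and 44 of the 63 points lie right of 0.

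**Figure D2:**
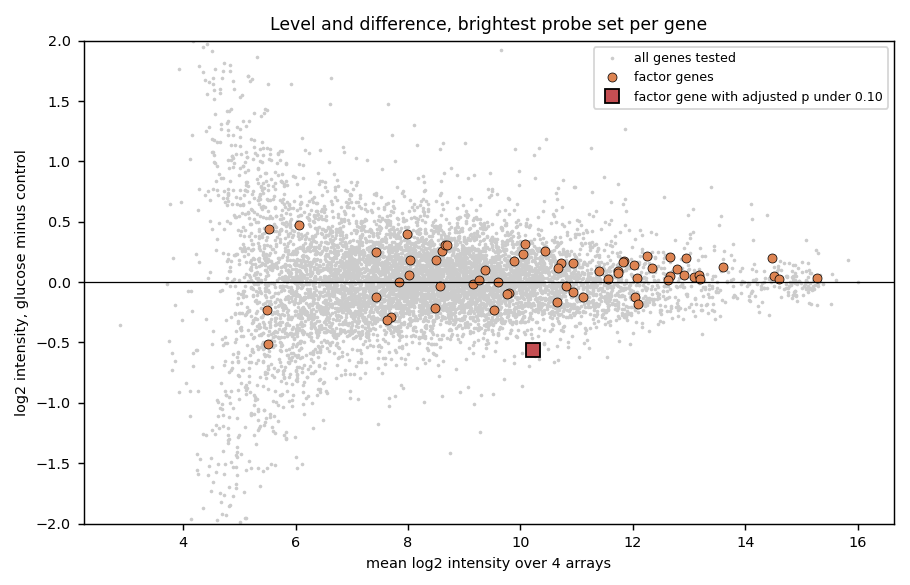
Log2 difference, glucose minus control (y axis), against mean log2 intensity over the 4 arrays (x axis), for all 8164 genes tested (grey) and the factor genes (orange). The y axis ends at 2 on either side, which leaves out 34 grey points, and the spread of the differences is widest at low intensity.

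The arrays measured whole embryos, so fewer cells of a type and less RNA per cell cannot be told apart. Markers of several tissues were read beside the factors. Of all genes, the trend test called 1.53% higher and 0.649% lower. Both glucose arrays lay above both controls for 21.8% of all genes and below for 20.6%. Of 4 red cell markers measured, 3 rose (slc4a1a, alas2 and hbbe2), and the summed intensity of all 4 was 53551 to 56765 on the glucose arrays and 42290 to 45717 on the control arrays. Of 3 liver and yolk markers, tfa and fgb rose, with sums of 50007 to 53401 in glucose and 41916 to 45064 in control embryos. The 3 heart markers summed to 2578 to 2602 in glucose and 1881 to 2093 in control embryos, and 0 of them passed. In these lists every glucose sum lay above every control sum. The 3 markers of proliferating cells summed to 19160 to 20345 in glucose and 16382 to 18101 in control embryos, and mcm2 rose. The 3 neuronal markers summed to 7240 to 7712 in glucose and 7929 to 8748 in control embryos, and 0 passed. The proliferation sums were thus higher and the neuronal sums lower in glucose, without overlap. The red cell, liver and yolk, and proliferation sums are mostly hbae3, apoa2 and pcna in turn. None of these passed (limma with trend, adjusted p = 0.268, 0.532 and 0.507), though their groups did not overlap. The proliferation marker mki67 differed by 0.016, with overlapping groups. The sums of the 3 skeletal muscle markers (82443 to 85853 in glucose, 83723 to 92753 in control embryos) and of the 2 epidermal markers (47879 to 48070 in glucose, 47632 to 53822 in control embryos) overlapped. The 2 lens markers lay on opposite sides, crybb1 at 6905 and 6748 in glucose and 6600 and 6342 in control embryos, and cryaa at 391 and 364 in glucose and 485 and 500.5 in control embryos, and 0 passed. Their sum, 7112 to 7296 in glucose and 6842 to 7085 in control embryos, is mostly crybb1. The 1 oocyte marker measured, gdf3, lay below the tag level on all arrays, and no marker of the other lists read below 184. The part of these tissues in the differences of the factor genes was not tested.

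The gene eef1e1 encodes a small non-catalytic subunit of the multi-tRNA synthetase complex, and is named for its likeness to a subunit of eEF1. Its intensity was 1002 and 966 on the glucose arrays, against 1535 and 1375 on the control arrays. The groups did not overlap, and both glucose arrays lay close together and well below the lower control. The mean was 984 ± 25.6 in glucose embryos and 1455 ± 113 in control embryos (SD, n = 2 each), which differ by -0.56 on the log2 scale (standard error 0.13, 95% interval from -0.84 to -0.28, limma with trend, adjusted p = 0.0439). Without the trend the adjusted p was 0.537. The call was lost without glucose replicate 1 (log2 difference -0.59, adjusted p = 0.151) and without glucose replicate 2 (-0.54, adjusted p = 0.293).

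After this value was seen, the other scaffold proteins of the synthetase complex were looked up, since they work beside the eef1e1 protein. For aimp2, which holds part of the complex together, the arrays read 999 and 989 in glucose, against 1559 and 1488 in control embryos. It fell by 0.62 on the log2 scale (standard error 0.13, limma with trend, adjusted p = 0.0211; 0.508 without the trend), and the groups did not overlap. Leaving out glucose replicate 1 gave -0.62 with an adjusted p of 0.101, and leaving out glucose replicate 2 gave -0.61 with 0.145. For aimp1a, another scaffold gene, the arrays read 2070 and 2100 in glucose, against 2650 and 2309 in control embryos, a difference of -0.25 that did not pass (adjusted p = 0.451). Of the 17 cytosolic tRNA synthetase genes measured, which charge the tRNAs, 0 passed, where 2.18% of all genes did. So few genes cannot tell 0 from that share. Of the 17, 8 were higher and 9 lower, with differences from -0.33 (wars1) to 0.19 (eprs1).

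**Figure D3:**
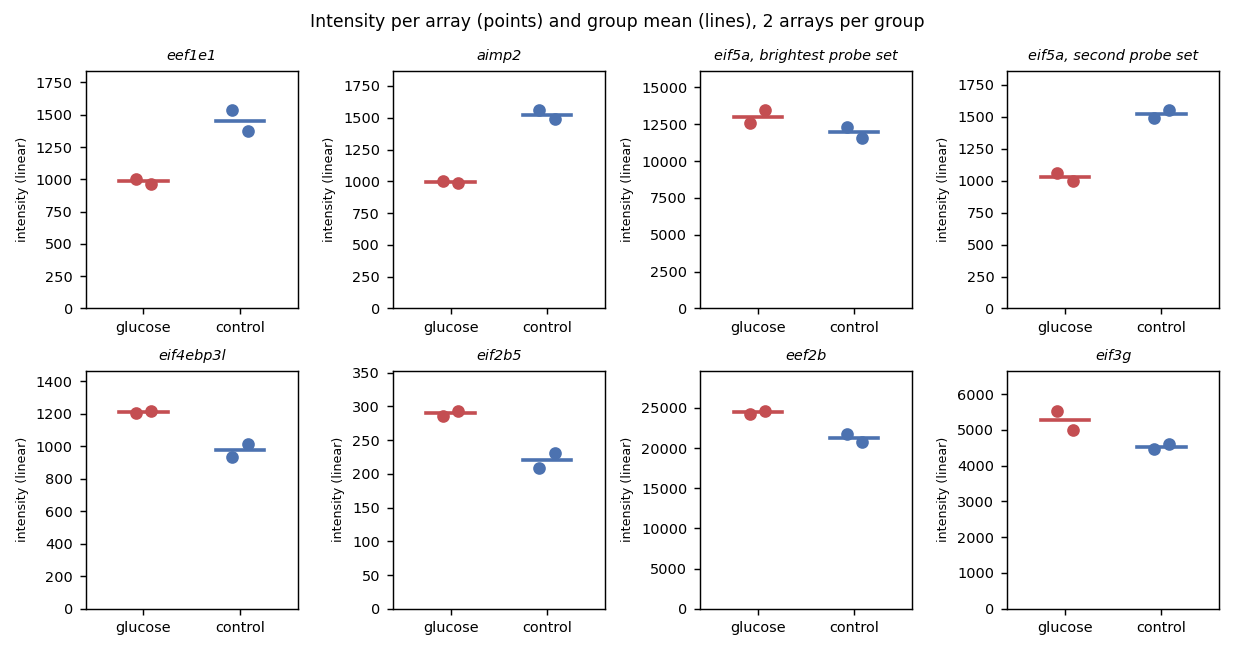
Linear intensity (y axis, from 0) of 7 genes on the glucose arrays (red, left) and control arrays (blue, right), with points for single arrays and lines for group means of 2 arrays. The glucose points lie below the control points for eef1e1, aimp2 and the second probe set of eif5a, and above them in the other panels.

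The eIF3 class, the large scaffold on the small subunit, had the most members on one side of 0. Of its 14 genes, 13 were higher in glucose, where 51.0% of all genes were. Of the 14, 0 passed, and the median difference was 0.12 (1.09-fold). Both glucose arrays lay above both controls for 7 of the 14 genes and below for 0, against the 21.8% and 20.6% of all genes given above. Among all genes with a mean log2 of at least 10 these shares were 23.0% and 26.2%. The median eIF3 gene stood at 0.079 and 0.026 on the glucose arrays and at -0.024 and -0.073 on the control arrays. Leaving out each array in turn gave class medians from 0.073, without control replicate 2, to 0.15. Without control replicate 2, eif3ea, eif3eb and eif3f lay below 0, at -0.075, -0.071 and -0.061.

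Among the core subunits, eif3ba read 8590 and 8311 on the glucose arrays, against 7130 and 7622 on the control arrays. This was a difference of 0.20 (95% interval -0.01 to 0.40, adjusted p = 0.471), with both glucose arrays on top. The RNA-binding subunit eif3g read 5540 and 5007 in glucose, against 4454 and 4615 in control embryos, a difference of 0.22 (-0.0079 to 0.44, adjusted p = 0.456). Both intervals reach just below 0. The subunit eif3c, also of the core, differed by 0.18 (3890 ± 210 in glucose and 3445 ± 336 in control embryos), and eif3i by 0.11. The largest subunit, listed as eif3s10, differed by 0.032 (4369 ± 373 in glucose and 4266 ± 152 in control embryos), with overlapping groups. Differences of 0.052 for eif3d, 0.063 for eif3f and 0.017 for eif3m were smaller than their standard errors of about 0.10.

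Zebrafish carry duplicate copies of several eIF3 genes. For the loosely attached subunit j, eif3ja differed by 0.16 and eif3jb by 0.31. With 1 control array left, eif3jb differed by 0.59 without control replicate 2 and by 0.027 without control replicate 1. For subunit e, eif3ea differed by 0.046 and eif3eb by 0.25. The copies of subunit h differed in sign, with 0.14 for eif3ha (standard error 0.11) and -0.31 for eif3hb (0.23), the only eIF3 gene below 0. On eif3hb the arrays read 181 and 173 in glucose, against 176 and 273 in control embryos, so its negative value rests on control replicate 2; without that array it was 0.00033. Over the 9 pairs of duplicate factor genes measured, 6 had differences of the same sign, and no difference between copies was tested.

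Among the factors that carry the initiator tRNA, 4 of 5 genes were higher in glucose and 0 passed, and the median was 0.19. That median was 0.068 without glucose replicate 1, 0.064 without control replicate 1, 0.12 without control replicate 2 and 0.32 without glucose replicate 2. The alpha subunit of eIF2, the site of stress phosphorylation, has copies eif2s1a and eif2s1b. For eif2s1a the arrays read 1287 and 1022 in glucose, against 894 and 1065 in control embryos, with overlap. For eif2s1b they read 2809 and 2739 in glucose, against 2551 and 2653 in control embryos, without overlap. Their differences were 0.23 and 0.092. The beta subunit eif2s2 lay the other way, at 4065 and 4087 in glucose and 4840 and 4429 in control embryos, a difference of -0.18 (95% interval -0.41 to 0.04, adjusted p = 0.553). The proteins eif2a and eif2d, which are separate from the eIF2 complex and can bind initiator tRNA, differed by 0.26 and 0.19 with overlapping groups.

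The eIF2B complex, which exchanges the guanine nucleotide on eIF2, had 4 of 5 genes higher and a median difference of 0.10. Its catalytic subunit gene eif2b5 read 286 and 294 in glucose, against 209 and 232 in control embryos, and the groups did not overlap. The difference of 0.40 had a 95% interval from 0.0046 to 0.79 and did not pass (limma with trend, unadjusted p = 0.048, adjusted p = 0.429). Limma without the trend gave an unadjusted p of 0.051. The regulatory subunit gene eif2b2 read 1586 and 1439 in glucose, against 1201 and 1326 in control embryos, a difference of 0.26 (adjusted p = 0.47). For eif2b1, eif2b3 and eif2b4 the differences were 0.0029, -0.014 and 0.10, with overlapping groups. The class median depended on the glucose arrays, at -0.023 without glucose replicate 1 and 0.27 without glucose replicate 2.

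Of the kinases of eIF2, the rule found only eif2ak3, the PERK kinase of endoplasmic reticulum stress, with 3 probe sets. Its brightest probe set read 196 and 180 in glucose, against 257 and 204 in control embryos, a difference of -0.28 that did not pass (adjusted p = 0.659). The other probe set tested read 49.3 and 41.9 in glucose and 6.59 and 20.5 in control embryos, below the tag level throughout, so its difference of 1.97 (standard error 1.12) is of little precision. The last was left out by the filter. Downstream of eIF2 phosphorylation, 6 stress response genes were measured (atf3, atf4a, atf4b, asns, chac1 and ppp1r15a). All were on the higher side, as were 51.0% of all genes, with 0 passing and a median of 0.063. The highest value was 0.34 for ppp1r15a, the phosphatase subunit that reverses the phosphorylation. Groups overlapped for 4 of the 6, as they did for 4706 of all 8164 genes. The differences of asns, atf4a and atf3 were 0.014, 0.024 and 0.029, far below their standard errors of 0.22, 0.12 and 0.22.

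The eIF4 factors bind the mRNA cap and unwind the leader. Of 15 genes, 14 were tested, 11 were higher in glucose, and 0 passed, with a median difference of 0.086. The helicase eif4a1a read 7700 and 7966 in glucose, against 7738 and 7283 in control embryos, and its copy eif4a1b read 3439 and 3572 in glucose, against 3373 and 3201 in control embryos. Their differences of 0.061 and 0.093 had 95% intervals that ended at 0.27 and 0.32. The helicase gene eif4a2 differed by 0.30 with overlapping groups (adjusted p = 0.559). For eif4a3, a relative that sits in the exon junction complex, the arrays read 3776 and 3918 in glucose, against 3456 and 3415 in control embryos, a difference of 0.16 without overlap. The helicase partners eif4bb and eif4h differed by 0.026 and 0.12.

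Cap-binding genes lay on both sides. For eif4ea, the standard cap-binding protein, the arrays read 692 and 545 in glucose, against 598 and 616 in control embryos, a difference of 0.016. The related eif4e1c differed by 0.15, and its other probe set by 0.38 (1275 and 1697 in glucose, 1115 and 1145 in control embryos, adjusted p = 0.3). The most negative value in the class was that of eif4e3, a divergent member of the family, at 710 and 659 in glucose and 793 and 815 in control embryos. Its difference was -0.23 (adjusted p = 0.574), and the groups did not overlap. The dimmer probe set of eif4e3, below the tag level on all arrays, differed by 0.17 (standard error 0.39). The gene eif4e2rs1, related to eIF4E2, differed by 0.18. For eif4e1b, whose mammalian counterpart is an oocyte form, intensities were 2.23 and 51.9 in glucose and 6.77 and 2.74 in control embryos, all below the tag level, and it was not tested.

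No scaffold gene of the eIF4G family passed. The copies eif4g2a and eif4g2b, forms that lack the eIF4E-binding part, differed by 0.078 and -0.081, and eif4g3a and eif4g3b by 0.18 and -0.0015. For eif4g3a the groups did not overlap (265 and 292 in glucose, 236 and 255 in control embryos, 95% interval -0.21 to 0.57). The 95% interval of eif4g3b ran from -0.42 to 0.42. Control replicates of eif4g2a were far apart, at 2843 and 3873, and both glucose arrays, at 3610 and 3399, lay between them.

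The eIF4E-binding proteins hold back cap-dependent initiation until mTORC1 phosphorylates them. Of this class, with eif4enif1, 2 of 4 genes were higher and 0 passed. For eif4ebp3l the arrays read 1207 and 1221 in glucose, against 938 and 1015 in control embryos, without overlap. The difference was 0.32 with a 95% interval from 0.04 to 0.59 (limma with trend, unadjusted p = 0.029, adjusted p = 0.361). Limma without the trend gave an unadjusted p of 0.087. For eif4ebp1 they read 2085 and 2181 in glucose, against 2203 and 2445 in control embryos, a difference of -0.12 (adjusted p = 0.761). For eif4ebp2 they read 4940 and 5888 in glucose, against 4401 and 5618 in control embryos, a difference of 0.12. Gaps were wide within both groups. Over the fits that each leave out 1 array, the difference of eif4ebp2 ranged from -0.059 to 0.29. Each end of this range rests on 1 control array, and the sign was not stable. The eIF4E transporter eif4enif1 differed by -0.031. Among 8 mTORC1 genes measured, 4 were higher, 4 lower and 0 passed, where 2.18% of all genes did. So few genes cannot tell 0 from that share. The highest was the inhibitor ddit4, at 342 and 339 in glucose and 218 and 231 in control embryos, a difference of 0.60 (adjusted p = 0.146). The lowest was lamtor2, at 407 and 457 in glucose and 553 and 513 in control embryos, a difference of -0.30 (limma with trend, adjusted p = 0.499). The probe set of mtor itself lay below the tag level on all arrays.

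The late initiation factors were the only class of more than 2 genes with every member lower, by a median of -0.09 (-0.16 without glucose replicate 1), and 0 of 3 passed. For eif5b, which joins the subunits, the arrays read 1509 and 1515 in glucose, against 1717 and 1664 in control embryos, a difference of -0.16 without overlap (95% interval -0.42 to 0.10, adjusted p = 0.674). Its second probe set differed by -0.09. The GTPase activator eif5 differed by -0.032 and eif6, which keeps the large subunit free, by -0.09, both with overlapping groups. Both turned positive in a fit without 1 array, eif5 to 0.056 without glucose replicate 1 and eif6 to 0.0019 without glucose replicate 2. The eIF1A genes eif1axa and eif1axb, which help the scanning ribosome find the start codon, differed by -0.21 and -0.12, and all 5 of their probe sets were negative, from -0.30 to -0.066. For eif1axb the brightest probe set turned to 0.027 without glucose replicate 1.

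The factor eIF5A, which carries the modified amino acid hypusine and helps ribosomes through stretches such as runs of proline, is encoded by eif5a and eif5a2. The brightest probe set of eif5a read 12595 and 13453 in glucose, against 12316 and 11588 in control embryos, a difference of 0.12 (95% interval -0.08 to 0.32, adjusted p = 0.674). Its second probe set read 1058 and 999 in glucose, against 1488 and 1552 in control embryos, and the groups did not overlap. That probe set fell by 0.56 on the log2 scale (standard error 0.13, 95% interval -0.83 to -0.29, limma with trend, adjusted p = 0.0371; 0.534 without the trend). The call on it was lost without glucose replicate 1 (-0.60, adjusted p = 0.121) and without glucose replicate 2 (-0.52, adjusted p = 0.303). Neither interval holds the other probe set's value, and the sources used here do not say which part of the transcript each covers. Both probe sets of eif5a2 were near 0, at 0.023 for the brightest (9440 and 9381 in glucose, 8668 and 9898 in control embryos) and 0.073 for the other.

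Of the 12 factor genes with several probe sets, 5 had tested probe sets with differences of opposite sign: eif5a, eif2ak3, eif4a1a, eif4e3 and eef2l2. For eif2ak3 and eif4e3 the positive value came from a probe set below the tag level on all arrays. For eif4a1a the dimmer probe set differed by -0.29 (653 and 552 in glucose, 685 and 786 in control embryos, adjusted p = 0.505). In all, 78 of the 80 factor probe sets were tested and 2 passed, those of eef1e1 and the second of eif5a. This is near the share over all probe sets, 273 of 13628 or 2.0%.

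**Figure D4:**
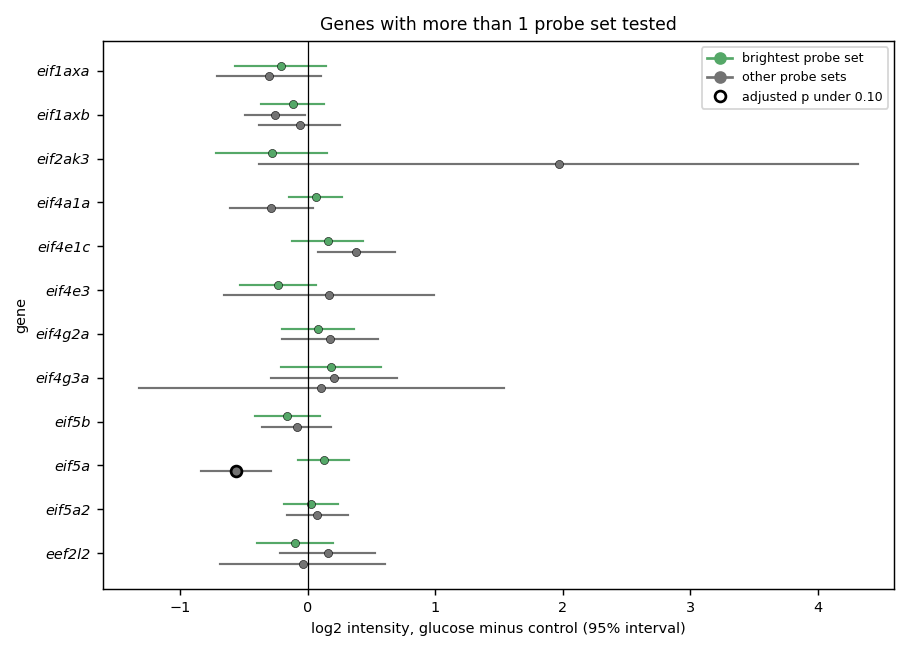
Log2 intensity difference, glucose minus control (x axis, point, with its 95% interval as a line), of each tested probe set of the 12 factor genes with several, with the brightest in green and the others in grey. The probe sets of eif5a lie apart, at 0.12 and -0.56 (thick outline, adjusted p under 0.10), and the wide line of eif2ak3 belongs to a probe set below the tag level.

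The eEF1A gene eef1a1l1, which carries aminoacyl-tRNA to the ribosome, read 40880 and 39104 in glucose, against 40082 and 38112 in control embryos. Its difference was 0.033 (95% interval -0.14 to 0.21), with overlapping groups. The other eEF1A genes eef1a1a, eef1a1b and eef1a1l3 differed by -0.12, -0.23 and -0.51. Of these, eef1a1b and eef1a1l3 lay below the tag level on all arrays, with wide standard errors of 0.56 and 0.54, and neither passed. The arrays of eef1a1l3 read 35.7 and 40.5 in glucose, against 55.7 and 52.8 in control embryos, without overlap. Its adjusted p was 0.782 in limma with the trend and 0.55 without (unadjusted p = 0.354 and 0.027). Transcripts of such close copies can reach each other's probe sets, which leaves the assignment to 1 copy uncertain.

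The exchange complex of eEF1 reloads eEF1A with GTP. Its genes eef1b2 and eef1g differed by 0.053 and 0.022. For eef1b2 the arrays read 23674 and 23789 in glucose, against 22209 and 23559 in control embryos, and for eef1g 25054 and 24935 in glucose, against 24699 and 24530 in control embryos. Neither gene's groups overlapped. For eef1db they read 7253 and 6660 in glucose, against 5845 and 6172 in control embryos, a difference of 0.21 without overlap (95% interval -0.0054 to 0.43, adjusted p = 0.451).

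For eef2b, the translocation factor eEF2, the arrays read 24241 and 24664 in glucose, against 21785 and 20777 in control embryos. The groups did not overlap, and the difference of 0.20 (1.15-fold, 95% interval 0.02 to 0.39) did not pass (limma with trend, unadjusted p = 0.035, adjusted p = 0.382). Limma without the trend gave an unadjusted p of 0.215. Without control replicate 1, which leaves 1 control array, the difference of eef2b was 0.23. The related eef2l2 differed by -0.10, and eef2a.1, at 76.3 and 80.8 in glucose and 74.4 and 42.9 in control embryos, lay below the tag level. The kinase eef2k, which slows elongation by phosphorylating eEF2, read 239 and 297 in glucose, against 222 and 292 in control embryos, a difference of 0.063 within the gaps between replicates. The methyltransferase gene eef1akmt2, whose human counterpart modifies eEF1A, lay below the tag level on all arrays.

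Among genes for tRNA charging, termination and recycling, poly(A) binding and scanning, and mitochondrial translation, 0 of 43 measured passed. That is near the 2.18% of all genes called. Of the 43, 22 were higher and 21 lower, with a median of 0.0012. The smallest adjusted p among them, 0.117, was that of the termination factor etf1b, at 2552 and 2559 in glucose and 1977 and 1872 in control embryos, a difference of 0.41 without overlap. All 6 termination and recycling genes were on the higher side, as were 51.0% of all genes. Their median was 0.19, and the release factor partner gspt1l was at 0.33. Of 14 genes for poly(A) binding and scanning, 5 were higher and 9 lower, and denr, a re-initiation factor, differed by -0.38 (1102 and 1155 in glucose, 1588 and 1355 in control embryos, adjusted p = 0.249). Of 6 mitochondrial translation factors, 3 were higher and 3 lower, with the elongation factor tufm at -0.23.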

How the data were processed

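Total RNA of whole embryos was extracted with Trizol and labelled with biotin for Affymetrix arrays, per the labels' protocols. The deposited table gives 1 linear intensity per probe set and array. The submitters' processing notes name GCRMA, but the deposited values have the same mean after trimming 2% at each end (500.15 to 500.16) and are very noisy when low, so the method and its background step are not settled. Noise at low values gives dim probe sets wide errors.

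Groups and replicate numbers came from the sample titles. The 115 control probe sets were left out, and symbols, taken from the platform annotation, were checked through the RefSeq table of GRCz12tu, which changed 0 factor symbols. The 2 probe sets that name a factor gene together with another gene were left out, so eif4g1a and eef1da were not analysed here. Log2 intensities were not scaled further. The filter removed 1874 of 15502 probe sets. The glucose and control arrays were compared by limma 3.58.1 in R 4.3.3 (lmFit and eBayes with trend, 2 residual and 15.6 prior degrees of freedom). The number of arrays limits the precision. Python 3.11.15, pandas 2.3.3 and matplotlib 3.10.9 made summaries and plots, and the code was tested on simulated data.

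The genes, classes, lists, test and threshold were chosen with earlier results of these data known, among them the counts of calls with and without the trend. Named were every gene past the threshold, the 2 smallest p and the brightest gene of each class, the regulators and duplicate pairs; other genes, and aimp2 and aimp1a, were chosen after their values were seen. No sequence is printed. The alternatives tried were each array left out, the replicate number as a block, no trend, robust eBayes, quantile normalization, median centring, 3 other filters, an offset of 32, the mean over a gene's probe sets and 2 other thresholds.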

Additional observations from a re-analysis of the deposited data

How the results depend on the processing

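With 2 arrays a group, single arrays set much of the result. Over all probe sets, 176 were higher and 97 lower; leaving out 1 array gave 88 to 578 higher and 59 to 356 lower, no trend 0 and 0, no filter 117 and 57, an adjusted p under 0.05 110 and 51, and an unadjusted p under 0.05 with 1.5-fold 311 and 275. Among the factor genes, 0 higher and 1 lower became 0 to 2 higher and 0 to 1 lower without 1 array, and 0 lower without the trend and at 1.5-fold, as eef1e1 differed by less. Without glucose replicate 1 or 2 eef1e1 was lost. Fits without 1 array keep 1 array in its group and take a gene's own spread from the other pair alone. Calls gained in them are thus not read as results about a gene.

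Class medians without 1 array ranged from -0.23 to -0.11 for eIF1A, 0.064 to 0.32 for eIF2, -0.023 to 0.27 for eIF2B, -0.45 to -0.12 for eif2ak3, 0.073 to 0.15 for eIF3, 0.0897 to 0.11 for eIF4, -0.067 to 0.15 for the eIF4E-binding class, -0.16 to -0.083 for eIF5, eIF5B and eIF6, 0.047 to 0.099 for eIF5A, 0.00071 to 0.096 for eEF1, 0.077 to 0.23 for eEF2, -0.13 to 0.26 for the elongation regulators and 0.056 to 0.077 for all factor genes. Quantile normalization gave -0.12 for eIF5, eIF5B and eIF6, -0.046 for eEF1 and 0.14 for eEF2; median centring gave -0.099 for eIF5, eIF5B and eIF6 and 0.054 for all factor genes. The filter at the tag level gave 0.0499 for eEF2, and it and the stricter filter gave -0.25 for the elongation regulators, as fewer genes are tested. With all probe sets of a gene averaged, eif2ak3 had 0.84, through its dim probe set, and eIF5A -0.086, through the second of eif5a. The cause of the other shifts was not tested.

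Of 45 named genes and probe sets, 19 changed sign in at least 1 of 14 settings, none of them while past the threshold. Settings that change only the variance estimate, the block or the filter leave each difference as it is. They could not change a sign. The replicate number as a block gave 188 higher and 113 lower probe sets and, among factor genes, 0 and 1, with an adjusted p of 0.0368 for eef1e1. Deviations of same-numbered arrays correlated with r = -0.023 across probe sets, and the labels give no pairing.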
